A study of Mus musculus with 24 samples.

Results

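The miR-30 family comprises 5 microRNAs (miRNAs), mir-30a, mir-30b, mir-30c, mir-30d and mir-30e, which were taken by name from the 510 names of the count table. Small RNA was sequenced from mammary tumors of female MMTV-PyMT mice on the FVB strain and from mammary glands of age-matched FVB mice without the transgene, with 3 mice per group at weeks 6, 8, 10 and 12, or 24 libraries in all. In the PyMT mice, which are heterozygous for the transgene, the MMTV promoter drives the polyoma middle T oncoprotein in the mammary epithelium, and the 4 ages stand for hyperplasia, adenoma, early carcinoma and late carcinoma. The normal glands hold fat, stroma and blood vessels beside the epithelium. Each library came from whole tissue, so fewer cells of a type and less RNA per cell cannot be told apart.

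A miRNA guides the silencing complex to messenger RNAs by pairing of its seed, the bases 2 to 8 from its 5′ end. miRNAs that share a seed are grouped in a family because they can recognise the same target sites. The miR-30 family is known from fat cell differentiation and from the control of epithelial and mesenchymal states, and its members are present in many tissues.

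The mature 5p sequences show what the members have in common and how little separates the reads of some of them. Sequences from RefSeq (GRCm38.p6) matched 3 of the 5 members, and the seed is in capitals.
miR-30a-5p: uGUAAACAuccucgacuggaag
miR-30c-5p: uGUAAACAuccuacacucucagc
miR-30e-5p: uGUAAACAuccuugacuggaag
The seed GUAAACA was the same in all 3. It was found in 4 of the 1679 mature names of the RefSeq sequences, the fourth being miR-384-5p. These sequences had no entry for miR-30b or miR-30d, so the seeds of those members were not read. In the count table mir-384 was listed at 0 counts in every library, which allows up to 3 counts in each. miR-30a-5p and miR-30e-5p were identical at 21 of 22 positions and differed by C13U, counted from the 5′ end of miR-30a-5p. miR-30a-5p and miR-30c-5p were identical at 17 of 22 positions. Reads of mir-30a and mir-30e are therefore separated by a single base in the 5p arm.

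In the mm9 annotation the family lies in 3 pairs of neighbouring loci. Mir30a (chr1:23279108-23279178, plus strand) and Mir30c-2 (chr1:23298540-23298623, plus strand), 19361 bases apart, overlapped no other annotated gene. The same held for Mir30b (chr15:68168977-68169072, minus strand) and Mir30d (chr15:68172770-68172851, minus strand), which are 3697 bases apart. Mir30c-1 (chr4:120442139-120442227, minus strand) and Mir30e (chr4:120445211-120445302, minus strand) lie in an intron of Nfyc, which encodes a subunit of the transcription factor NF-Y, on the same strand. The counts of mir-30c cannot be divided between Mir30c-1 and Mir30c-2, since both give the same 5p sequence.

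Total counts ranged from 1032241 to 2213972 in tumor libraries and from 1626022 to 3931375 in normal libraries. The lowest count of any member in any library was 334, for mir-30b, and all 5 members were among the 237 miRNAs tested. In 7 libraries, 3 of tumors and 4 of normal glands, the skeletal muscle miRNA mir-133a stood between 8796 and 84629 CPM (counts per 1e6 counts of a library, scaled with TMM, the trimmed mean of M values), against at most 2324 in the other 17. Results that rest on these 7 libraries are given with and without them.

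The family took 1.83 to 2.83% of all counts in normal libraries (median 2.24%, n = 12) and 2.30 to 4.25% in tumor libraries (median 2.76%, n = 12). At week 6 the tumor libraries held 2.30, 2.72 and 2.33% and the normal libraries 2.43, 2.13 and 1.83%. At week 8 they held 2.69, 2.68 and 2.31% in tumors and 2.83, 2.15 and 1.85% in normal glands, and at week 10 2.80, 3.25 and 3.26% and 2.61, 2.29 and 1.92%. At week 12 the tumor libraries held 3.60, 3.12 and 4.25% and the normal libraries 2.64, 2.19 and 2.33%. The groups overlapped at weeks 6 and 8 and were separate at weeks 10 and 12, where each tumor library stood above each normal library. These percents are of raw counts and lack the TMM scaling of the CPM values. The TMM factors were 0.824 to 1.15 in tumors and 0.804 to 1.13 in normal glands. In scaled CPM, mir-30d overlapped between the groups at weeks 10 and 12. How many of all miRNAs were separate on the raw scale was not counted. mir-30d held most of the family, with 53.5 to 62.7% of its counts in tumors and 55.2 to 70.9% in normal glands. The share of mir-30c was at least 10.8% in each tumor (median 13.7%) and 7.61 to 10.6% in normal glands (median 10.2%), so that the ranges did not overlap. The share of mir-30b, the least counted member, was 0.950 to 1.57% and 1.07 to 2.17%. Counts of different miRNAs within a library need not stand in the ratio of their amounts in the tissue, so only differences between groups are read from these shares.

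**Figure D1:**
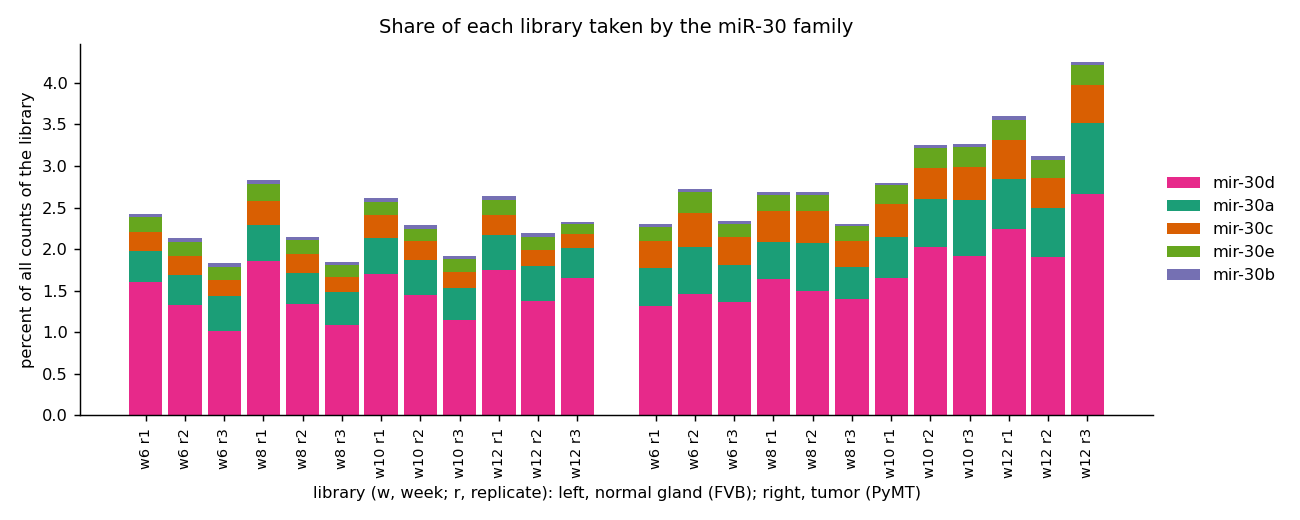
Percent of all counts (vertical axis) taken by each of the 5 members in every library, normal glands on the left and tumors on the right, ordered by week and replicate. mir-30d is the largest segment in each bar, and the tallest bar is the tumor of week 12, replicate 3, at 4.25%.

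mir-30c was the member with the highest tumor level relative to normal glands. At week 6 its level was 3485, 3983 and 3285 CPM in the tumors (replicates 1 to 3) and 2032, 1960 and 1746 CPM in the normal glands. At week 8 it was 3889, 4673 and 2973 CPM in the tumors and 3061, 1992 and 1741 CPM in the normal glands. The groups were separate at week 6 and overlapped at week 8, where the lowest tumor lay under normal replicate 1. At week 10 it was 3817, 3674 and 4227 CPM against 2784, 2154 and 1927 CPM in normal glands, and at week 12 it was 4077, 4018 and 4950 CPM against 2926, 1821 and 2202 CPM. At both of these ages each tumor was above each normal gland.

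The log2 fold change of mir-30c, tumor minus normal, was 0.91 at week 6 (standard error, SE, 0.15 with 3 mice a group, edgeR adjusted p = 0.00281, where the quasi-likelihood p-values were adjusted over the 237 miRNAs by Benjamini-Hochberg). It was 0.71 at week 8 (edgeR adjusted p = 0.102), which did not pass the threshold of 0.05. It was 0.76 at week 10 (edgeR adjusted p = 0.00784) and 0.90 at week 12 (edgeR adjusted p = 0.0194). With the replicate number as a block, the week 8 value was 0.75 and passed (edgeR adjusted p = 0.0295). In the fit of all 24 libraries the mean over weeks was 0.84 (SE 0.11, edgeR adjusted p = 7.95e-07).

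**Figure D2:**
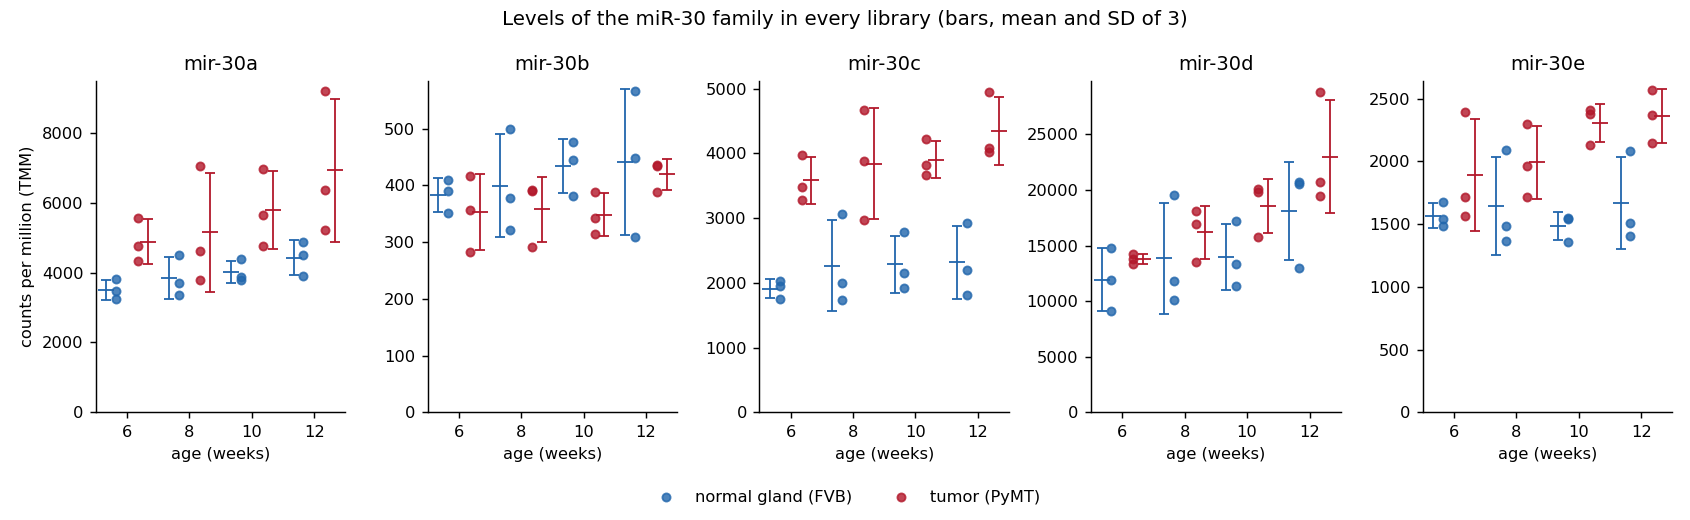
Level of each member (vertical axis, CPM) against age in weeks, with points for single libraries and bars for the mean and SD of 3, normal glands in blue and tumors in red. The tumor points of mir-30c lie above the normal points at weeks 6, 10 and 12, and those of mir-30b and mir-30d overlap the normal points at every week.

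mir-30a and mir-30e, whose 5p sequences differ at a single position, were both above normal glands by a smaller amount. mir-30a was 4755, 5574 and 4320 CPM in the tumors of week 6 and 3463, 3252 and 3820 CPM in the normal glands. At week 10 it was 4747, 5647 and 6955 CPM in tumors and 4376, 3873 and 3799 CPM in normal glands. It was separate between the groups at weeks 6, 10 and 12 and overlapped at week 8, and its widest group was the tumors of week 12, with 5226, 6361 and 9182 CPM. Its log2 fold change was 0.48 at week 6 (SE 0.15, edgeR adjusted p = 0.0277) and 0.51 at week 10 (edgeR adjusted p = 0.0306). At weeks 8 and 12 it was 0.37 (edgeR adjusted p = 0.309) and 0.63 (edgeR adjusted p = 0.0790), neither past the threshold. With the replicate block the week 6 value was 0.47 and no longer passed (edgeR adjusted p = 0.0622).

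mir-30e passed the test at week 10. There it was 2128, 2380 and 2406 CPM in the tumors and 1553, 1360 and 1542 CPM in the normal glands, a log2 fold change of 0.62 (SE 0.12, edgeR adjusted p = 0.00441). Its groups were also separate at week 12, with 2146, 2366 and 2572 CPM against 2087, 1505 and 1409 CPM, and the log2 fold change of 0.49 did not pass (edgeR adjusted p = 0.0946). At weeks 6 and 8 its groups overlapped, and its log2 fold changes were 0.27 and 0.23. Over all weeks the mean was 0.52 for mir-30a (SE 0.11, edgeR adjusted p = 2.66e-04) and 0.42 for mir-30e (SE 0.09, edgeR adjusted p = 4.31e-04).

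mir-30b and mir-30d, neighbours on chromosome 15, did not pass the test at any week with all libraries. mir-30d was 13779, 14210 and 13336 CPM in the tumors of week 6 and 14778, 11887 and 9141 CPM in the normal glands. At week 12 it was 19427, 20762 and 28803 CPM in tumors and 20746, 13015 and 20510 CPM in normal glands. Normal replicate 1 was the highest normal library of each week, and the groups overlapped at every week in TMM-scaled CPM. As a percent of all counts, without that scaling, mir-30d was separate at week 12. It was 1.91 to 2.67% in those tumors and 1.38 to 1.75% in the normal glands. The weekly log2 fold changes of mir-30d were 0.21, 0.17, 0.40 and 0.33 from week 6 to week 12. Without 1 library they were 0.046 to 0.39, 0.028 to 0.58, 0.18 to 0.57 and 0.11 to 0.53 in the same order. The mean over weeks was 0.30 (SE 0.12, edgeR adjusted p = 0.0321). Of the 4 calls of the family in the mean over weeks, this was lost most often. Leaving out 1 library at a time gave means between 0.16 and 0.36, and the call was kept only without tumor replicate 1 of weeks 6 or 10, tumor replicate 2 of week 12, tumor replicate 3 of week 6, or normal replicate 1 of any week.

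mir-30b was 357, 417 and 284 CPM in the tumors of week 6 and 409, 390 and 351 CPM in the normal glands. At week 10 it was 315, 342 and 389 CPM in tumors and 476, 446 and 382 CPM in normal glands, and at week 12 it was 388, 434 and 436 CPM against 566, 449 and 308 CPM. Tumor and normal libraries overlapped at each week. Its log2 fold changes were -0.12, -0.21, -0.33 and -0.07 from week 6 to week 12, and the mean over weeks was -0.17 (SE 0.11, edgeR adjusted p = 0.149). The sign at week 12 turned with library sizes alone (0.056), without the 7 libraries high in mir-133a (0.10), and without normal replicate 1 (0.15) or tumor replicate 2 (0.017) of that week. The sign at week 6 turned without tumor replicate 3 (0.10) and that at week 8 without normal replicate 1 (0.056). The mean passed the threshold without tumor replicate 1 of week 12 (-0.28), tumor replicate 2 of week 6 (-0.33) or normal replicate 3 of week 12 (-0.26).

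**Figure D3:**
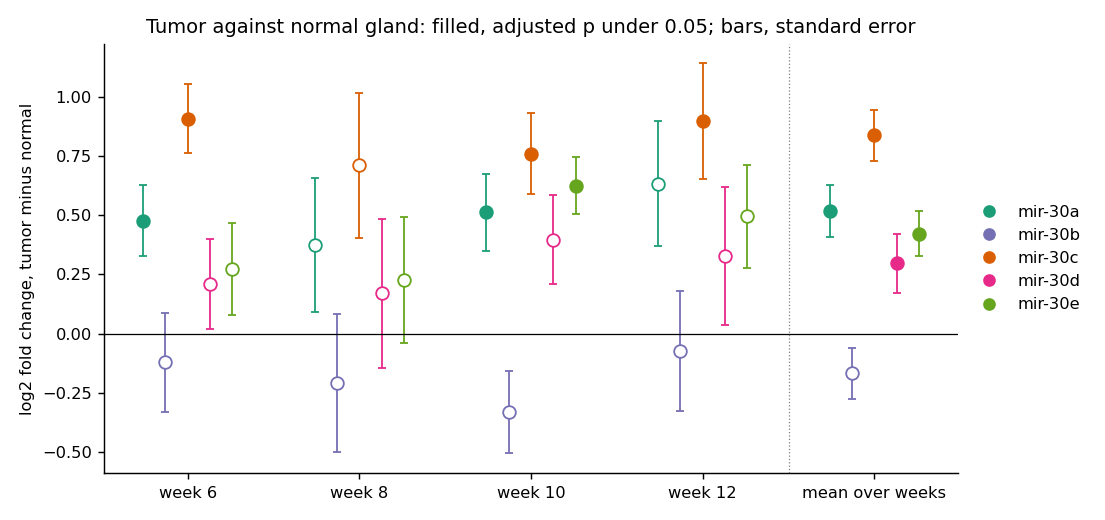
Log2 fold change, tumor minus normal (vertical axis), of each member at each week and as the mean over weeks, with the standard error (SE) as bars; filled points passed an adjusted p of 0.05 in edgeR. mir-30c is the highest point in every column and mir-30b the lowest, at 0.84 and -0.17 for the mean over weeks.

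Taken in order of age, 2, 0, 3 and 1 of the 5 members passed at weeks 6 to 12, all higher in tumor. Among all 237 tested miRNAs, 58.6, 35.4, 60.3 and 50.6% passed in either direction. The shares that passed and were higher in tumor were 29.1, 21.9, 32.9 and 29.1%. In the mean over weeks 4 of 5 members passed, all higher, against 85.7% of all miRNAs in either direction and 38.8% higher. Members with all 3 tumors above all 3 normal glands numbered 2, 0, 3 and 3 in the same order, against 34.2, 32.1, 36.3 and 33.3% of all tested miRNAs. At week 8, 115 of the 237 miRNAs had an unadjusted p under 0.05, and among the members this held for mir-30c alone. With tumor and normal libraries of the same number as a block, 1 member passed at week 6, where 135 of all 237 miRNAs did, and 1 at week 8, where 131 did.

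When libraries were left out one at a time, mir-30c kept its call at week 6 in all 6 fits (0.84 to 1.05) and mir-30e its call at week 10 in 5 of 6 (0.50 to 0.67). Other calls at single weeks were lost more often. The call of mir-30a at week 6 was lost without replicate 1 or 2 of either group, with values of 0.43 to 0.51. At week 10 no member passed without normal replicate 2, mir-30a also lost its call without tumor replicate 2 (0.53), tumor replicate 3 (0.37) or normal replicate 3 (0.39), and mir-30c without normal replicate 3 (0.56). At the same week mir-30d passed without normal replicate 1 (0.57, edgeR adjusted p = 0.0343), and mir-30b passed, lower in tumor, without normal replicate 3 (-0.50, edgeR adjusted p = 0.0487). At week 12 none passed without tumor replicate 3, where mir-30c was 0.78 and 74 of all 237 miRNAs passed. At the same week mir-30e passed as well without normal replicate 1 (0.69). At week 8, mir-30c passed without normal replicate 1 (1.07). Without the 7 libraries high in mir-133a, the mean over weeks passed for 2 members, mir-30c (0.81, edgeR adjusted p = 0.00126) and mir-30e (0.39, edgeR adjusted p = 0.0272), and did not for mir-30a (0.38, edgeR adjusted p = 0.0695) or mir-30d (0.32, edgeR adjusted p = 0.163). In that fit 0 members passed at week 6, where 1 tumor and 1 normal library were left and were assumed to vary like the other groups, and 23 of all 237 miRNAs passed in place of 139. The week 6 values were 0.95 for mir-30c and 0.22 for mir-30a. At week 10, 0 members passed and 91 of all miRNAs in place of 143, with 0.56 for mir-30c, 0.59 for mir-30e and 0.29 for mir-30a. The 139 and 143 came from the fit of each week alone, so the model changed along with the libraries.

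Within each sequencing lane a single tumor-normal difference common to all weeks was fitted, in place of the mean of weekly differences. In lane 1 it was 0.71 for mir-30c, 0.43 for mir-30a, 0.29 for mir-30e, 0.039 for mir-30d and -0.26 for mir-30b. Within lane 2 the values were 0.93, 0.52, 0.52, 0.53 and -0.11 in the same order. mir-30c and mir-30a passed in both lanes, and mir-30d and mir-30e passed in lane 2 and not in lane 1. Whether the lanes differ was not tested. Over all alternatives of the mean over weeks, the lanes among them, 157 to 233 of the miRNAs tested in each passed. Alternatives with another filter on counts tested another set of miRNAs, so these counts do not share a total.

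The median log2 fold change of all 237 miRNAs in the mean over weeks was -0.15, so that the midpoint of the table lay under 0, and the median of the 5 members was 0.42. Ranked from the highest, mir-30c was 69 of 237, mir-30a 78, mir-30e 84, mir-30d 93 and mir-30b 120. With DESeq2 size factors the median of all miRNAs was -0.24, and the values were 0.75 for mir-30c, 0.43 for mir-30a, 0.33 for mir-30e, 0.20 for mir-30d and -0.25 for mir-30b.

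**Figure D4:**
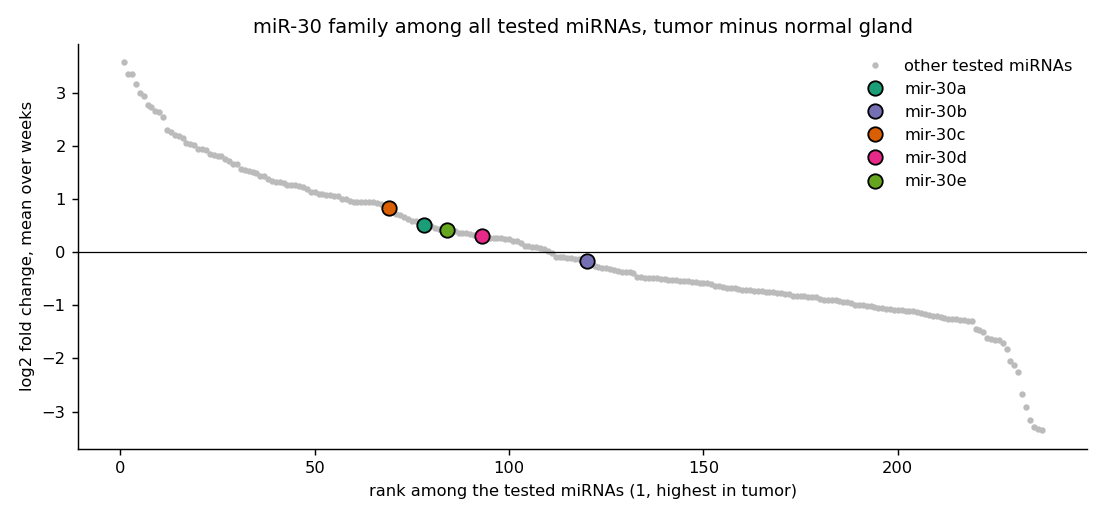
Mean over weeks of the log2 fold change, tumor minus normal (vertical axis), of the 237 tested miRNAs in order of rank (horizontal axis), with the 5 members marked. The members lie in the middle part of the curve, from rank 69 for mir-30c to rank 120 for mir-30b.

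Ratios between members within a library do not depend on how libraries are scaled, and they were used to test whether members differed from normal glands by the same amount. Counts of both members plus 0.5 were compared, and labels were permuted within weeks over all 160000 regroupings. Of the 10 pairs, 7 differed between tumor and normal glands after adjustment over the pairs.

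The ratio of mir-30c to mir-30b was 9.24 to 12.1 in the 12 tumors (median 10.6) and 4.06 to 7.13 in the 12 normal glands (median 5.11), with no overlap. The difference was 1.01 on the log2 scale, or 2.01-fold, with p = 1.25e-05, the smallest that this exact permutation test can give (two-sided, adjusted p = 4.17e-05). At week 6 the ratio was 9.74, 9.53 and 11.6 in tumors and 4.96, 5.02 and 4.97 in normal glands. At week 12 it was 10.5, 9.24 and 11.3 in tumors and 5.17, 4.06 and 7.13 in normal glands. The log2 difference was 1.04, 0.93, 1.10 and 0.96 at weeks 6, 8, 10 and 12. The groups were separate at each of the 4 weeks, and the difference was 0.99 within lane 1 and 1.05 within lane 2.

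The ratio of mir-30e to mir-30b was 4.80 to 6.95 in tumors and 3.05 to 4.56 in normal glands, again with no overlap, a log2 difference of 0.58 (exact permutation test, adjusted p = 4.17e-05). The ratio of mir-30b to mir-30a fell by 0.65 on the log2 scale (exact permutation test, adjusted p = 9.38e-05), from a median of 0.112 in normal glands to 0.0674 in tumors.

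The members of the neighbouring loci Mir30b and Mir30d had a ratio that differed. mir-30d to mir-30b, from chromosome 15, had a median ratio of 47.4 in tumors and 31.4 in normal glands, a log2 difference of 0.48 (exact permutation test, adjusted p = 0.00107). Its ranges overlapped. Normal replicate 3 of week 12 stood at 66.4 against at most 39.1 in the other normal glands. The ranges overlapped without that library too, since tumor replicate 2 of week 6, at 34.0, lay under normal replicate 1 of each week. mir-30e to mir-30c fell by 0.43 on the log2 scale (exact permutation test, adjusted p = 1.75e-04), and Mir30e and Mir30c-1 lie in the same gene. mir-30c has a further locus on the chromosome of Mir30a, and mir-30c to mir-30a rose by 0.36 (exact permutation test, adjusted p = 3.75e-04). Counts of mir-30c pool both of its loci, so these ratios to mir-30c or of mir-30c do not compare single neighbouring loci.

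mir-30d to mir-30c fell by 0.53 on the log2 scale (exact permutation test, adjusted p = 4.17e-05), from a median of 6.19 in normal glands to 4.45 in tumors, and tumors lay under normal glands at each of the 4 weeks. The 3 pairs that did not pass were those among mir-30a, mir-30d and mir-30e. Their log2 differences were -0.17 for mir-30d to mir-30a (adjusted p = 0.119, and -0.28 with adjusted p = 0.0055 without normal replicate 3 of each week), -0.07 for mir-30e to mir-30a (adjusted p = 0.393) and 0.10 for mir-30e to mir-30d (adjusted p = 0.319), all by the exact permutation test. Without the 7 libraries high in mir-133a the same number of pairs, 7, passed. Within lane 1, 8 pairs passed, with mir-30d to mir-30a added, and within lane 2, 6 passed, since mir-30d to mir-30b missed the threshold (0.66, exact permutation test, adjusted p = 0.0595). A lane holds fewer libraries and allows far fewer regroupings than 160000. The smallest p-value that the test can give is therefore larger within a lane, and a miss there need not mean a smaller difference.

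**Figure D5:**
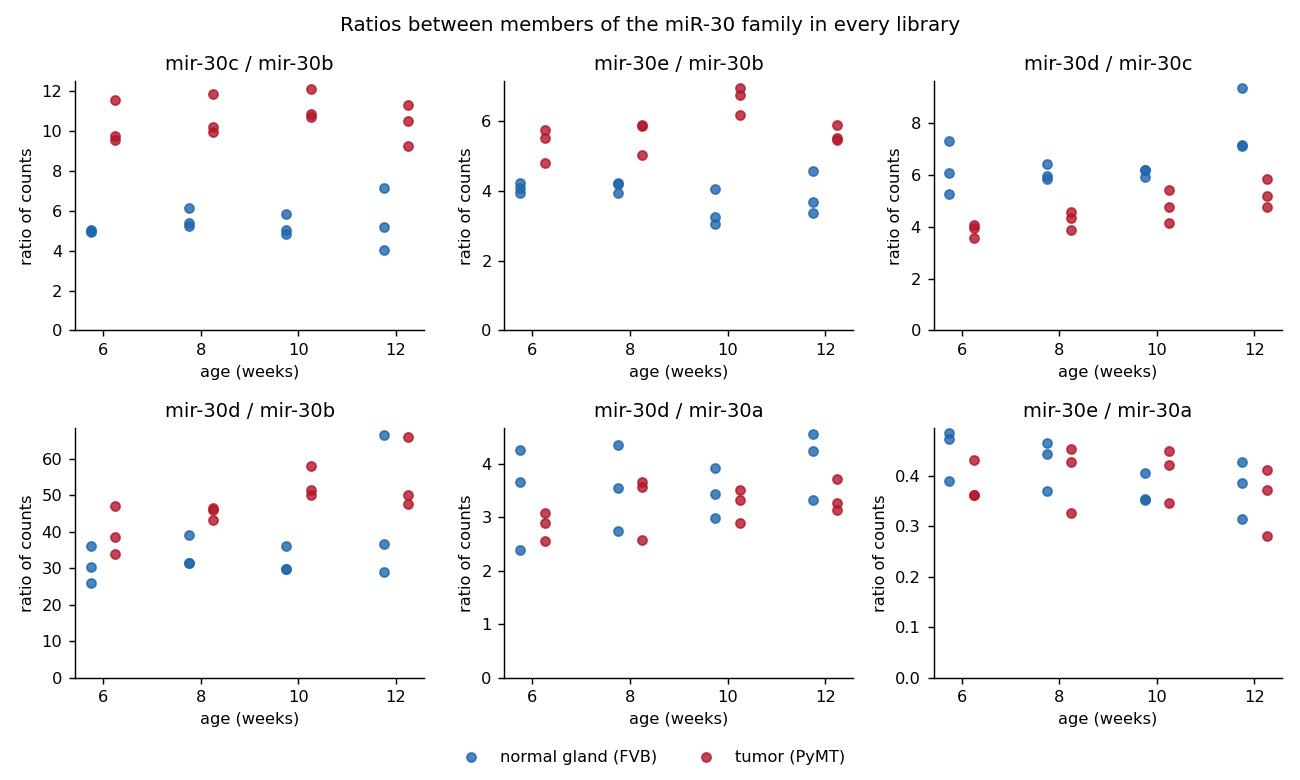
Ratio of the counts of 2 members (vertical axis) in every library against age in weeks, normal glands in blue and tumors in red, for 6 of the 10 pairs. The tumor points of mir-30c / mir-30b (9.24 to 12.1) and mir-30e / mir-30b (4.80 to 6.95) lie above every normal point, while the groups overlap at every week for mir-30d / mir-30a and mir-30e / mir-30a.

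No member passed the test of whether the tumor-normal difference varied between weeks (adjusted p of 0.938 or more from edgeR's F test of the interaction). Of all 237 miRNAs 0 passed that test with edgeR, or 0%, with 9 at an unadjusted p under 0.05, and 0 passed with DESeq2. From week 6 to week 12 no member passed in normal glands, where 21.1% of all miRNAs did, or in tumors, where 7.59% did. mir-30d had the largest of these values among the members, 0.60 in normal glands (edgeR adjusted p = 0.0907) and 0.74 in tumors (edgeR adjusted p = 0.0686). With lane as a covariate, 1 member passed in each. Without 1 library, mir-30d passed in 6 of 24 fits for normal glands (0.44 to 1.02) and in 2 of 24 for tumors (0.61 to 0.92).

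Within groups the members varied less than most miRNAs. They are also among the more counted, with ranks by total count from 12 for mir-30d to 93 for mir-30b among the 510 names. miRNAs of like count were not compared separately. The within-group SD of log2 CPM was 0.22 for mir-30e, 0.25 for mir-30b, 0.26 for mir-30c, 0.27 for mir-30a and 0.31 for mir-30d, against a median of 0.37 over the 237 miRNAs.

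The miRNAs with the pattern most like each member were found by Pearson's r of log2 CPM over the 24 libraries, which share genotype differences and lanes, so that r is a description. Within the family, mir-30a, mir-30c and mir-30e had r of 0.84 to 0.88 to each other, and mir-30d had 0.79 to mir-30a, 0.73 to mir-30c and 0.73 to mir-30e. Outside the family, the closest to mir-30c were mir-484 (0.93), mir-423 (0.93) and mir-23b (0.93). For mir-30a the closest outside the family were mir-582 (0.85), mir-27b (0.81) and mir-466d (0.80), and for mir-30e mir-582 (0.83), mir-27b (0.83) and mir-23b (0.81). For mir-30d, likewise outside the family, they were mir-192 (0.83), mir-125a (0.78) and mir-423 (0.70). mir-30b stood apart from the family, with r of 0.064 to mir-30c and 0.36 to mir-30d, and its closest miRNAs outside the family were mir-15a (0.69), mir-29a (0.64) and mir-26a (0.63).

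After the group means were removed, mir-30b had higher correlations with the other members, with r of 0.84 to mir-30e, 0.74 to mir-30c, 0.53 to mir-30d and 0.52 to mir-30a. mir-30c and mir-30d had an r of 0.87 and mir-30a and mir-30e one of 0.68. Libraries of a group that were high in 1 member thus tended to be high in the others, mir-30b included. This was not particular to the family. The closest miRNAs outside it were mir-27a for mir-30d (0.90) and mir-30c (0.86), and mir-101a for mir-30e (0.82). They were mir-27b for mir-30a (0.76) and mir-193b for mir-30b (0.74). Among all tested miRNAs, mir-30b ranked 34 in likeness to mir-30d and 24 in likeness to mir-30a.

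Markers of several cell types moved with the tumor-normal comparison, and their part in the results of the miR-30 family was not tested. In the mean over weeks, 8 of 10 epithelial miRNAs rose and 1 fell, and their summed level was 57013 to 98241 CPM in tumors and 15327 to 30652 CPM in normal glands. The defining mir-200c and mir-141, which hold cells in the epithelial state, had log2 fold changes of 2.15 and 1.66. The 3 fibroblast miRNAs fell, with sums of 4179 to 8040 CPM in tumors and 12658 to 19882 CPM in normal glands, mir-199a by 1.09 and mir-214 by 0.91 on the log2 scale. Both smooth muscle miRNAs fell (sums of 64714 to 129098 and 144030 to 256187 CPM), mir-143 by 1.22 and mir-145 by 1.61. The endothelial mir-126 fell by 1.25 and was 6568 to 18254 CPM in tumors and 20498 to 37464 CPM in normal glands.

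The sums of the other lists overlapped between tumors and normal glands. Of 3 adipocyte miRNAs tested, 0 rose and 2 fell (sums of 3046 to 15080 and 4662 to 25146 CPM), with log2 fold changes of 0.36 for mir-193b and -0.38 for mir-365. Of 3 erythroid miRNAs all fell (2060 to 13679 and 7798 to 34558 CPM), mir-144 by 0.90 and mir-451 by 1.28. Of 4 leukocyte miRNAs 3 were tested and 1 fell (1198 to 1868 and 1681 to 3241 CPM), with values of -0.13 for mir-142 and -2.05 for mir-150. Of 4 skeletal muscle miRNAs 3 were tested and all fell (40 to 18075 and 89 to 89335 CPM), mir-1 by 3.33 and mir-133a by 2.91, and mir-1 was at 0 in 1 tumor library. No other defining marker was at 0 in a library.

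Of 14 miRNAs linked to fat cell differentiation, a process in which the miR-30 family is also known, 3 rose and 9 fell in the mean over weeks. Among all 237 tested miRNAs, 85.7% passed in either direction and 38.8% passed and were higher in tumor. The list is not divided by whether a miRNA favors or opposes the process, so these counts do not give its direction. Their median log2 fold change was -0.44, against -0.15 for all tested miRNAs and 0.42 for the members of the family. The defining mir-143, which is also a smooth muscle marker above, and mir-103 fell by 1.22 and 0.95 on the log2 scale. The 3 that rose were mir-27b (1.93), mir-148a (1.82) and mir-130b (1.33). The summed level of the 14 was 371466 to 675541 CPM in tumors (median 461947) and 272795 to 467546 CPM in normal glands (median 342145). The ranges overlapped.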

How the data were processed

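Reads were made by the authors from total RNA with the TruSeq small RNA kit, trimmed, selected by length, aligned with Bowtie and compared with miRBase. The labels and column names give mm9, while the study's methods name a later build. How reads with several alignments, or the 2 arms of a hairpin, were counted is not given in the sources used here. The deposited values are raw counts per miRNA name, and 0 columns were left out. Counts were tested with edgeR 4.0.16 in R 4.3.3 (quasi-likelihood test, TMM, filterByExpr over 24 libraries and 8 groups, 237 miRNAs kept, Benjamini-Hochberg threshold 0.05), each week by itself, and in a fit of all libraries for the mean over weeks, the interaction and week 12 minus week 6. CPM use TMM over all libraries, and log2 CPM a prior count of 2. Ratios were tested with an exact permutation test, with p-values adjusted over 10 pairs. The procedures were tested on simulated data. The labels number the replicates, and the study's methods describe them as separate mice.

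The members, the gene lists and the named miRNAs (all members, miRNAs with the same seed, the 3 closest miRNAs of each member and the defining markers) were chosen with earlier results of these data known. The fat-linked miRNAs that rose, and the closest miRNAs after the group means were removed, were named after seeing the data. Libraries high in skeletal muscle miRNAs, at 5000 CPM of mir-133a or more, were left out as an alternative chosen after seeing the data. For the pairing check, deviations from the group means were correlated between a tumor and a normal library that share week and number, with r of 0.03 to 0.82 (mean 0.41), over 0.1 in 10 of 12 pairs and in every pair of weeks 6, 8 and 10. For 9 of the 12 tumors the normal library of the same number had the highest r. The numbers were therefore read as pairing those 3 weeks and not week 12. The main tests nevertheless used no pairing. The block was run as an alternative, and it included week 12. The fits with the block had been run when this reading was decided. The labels do not say what a number stands for. The other alternatives were DESeq2 1.42.0 (size factors or Wald test), library sizes only, no filter on low counts, a minimum of 10 counts per library, leaving out the 5 most counted miRNAs, lane as a covariate, 1 lane only, a single fit of all libraries, pseudocounts of 0 and 2, Spearman's correlation and leaving out each library. The spread between mice limits the precision.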

Additional observations from a re-analysis of the deposited data

How the results depend on the processing

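The mean over weeks kept its direction for every member under all 11 alternatives that use whole settings, and mir-30c kept its call in each (0.71 to 0.93). The alternatives within a lane fitted a single difference common to all weeks in its place. mir-30d lost its call with DESeq2 size factors (0.20), no filter (0.23), without the 5 most counted miRNAs (0.24), with the DESeq2 Wald test (0.20), in lane 1 (0.039) and without libraries high in skeletal muscle miRNAs (0.32), where mir-30a (0.38) lost it too. mir-30e lost it in lane 1 (0.29), and mir-30b passed with the DESeq2 Wald test (-0.25, adjusted p = 0.0469). The number of members that passed was then 2 in lane 1 and 2 without the muscle-rich libraries, in place of 4. Over the 11 alternatives, 157 to 233 of the miRNAs tested in each passed in the mean over weeks, in place of 203. The alternatives with no filter, with at least 10 counts or without the 5 most counted miRNAs tested another set. These counts therefore do not share a total. The causes of the changed calls were not tested.

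At single weeks, the number of members at week 6 was 1 in place of 2 with library sizes only, no filter, the replicate block and the single fit, and 0 without the muscle-rich libraries. At week 8 it was 1 in place of 0 with the replicate block, the single fit and without the muscle-rich libraries, none of which was of week 8. Without them, the numbers of each week came from a single fit of the libraries left. The numbers they are set against came from the fit of each week alone, so the model changed as well. At week 12 it was 3 in place of 1 with library sizes only and the single fit. At week 10 it was 0 in place of 3 without the muscle-rich libraries. For week 12 minus week 6 it was 1 in place of 0 in tumors with library sizes only, the lane covariate and the DESeq2 Wald test, and 1 in normal glands with the lane covariate. Of all miRNAs, 58 to 131 passed at week 8 and 100 to 135 at week 12 over the alternatives, in place of 84 and 120. Here and below, another set of miRNAs was tested with no filter, at least 10 counts or without the 5 most counted miRNAs. Their counts do not share a total with those they replace. The replicate block gave 131 miRNAs in place of 84 at week 8, and in the weekly comparisons and the mean over weeks it changed no other member's call than those of mir-30a at week 6 and mir-30c at week 8. The number over all miRNAs was 10, 30 and 0 in place of 18 for tumors with no filter, the DESeq2 Wald test and without the muscle-rich libraries. It was 28 and 18 in place of 50 for normal glands with at least 10 counts in every library and without the muscle-rich libraries, which also gave 23 in place of 139 at week 6 and 91 in place of 143 at week 10.

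Library sizes only moved the median log2 fold change of all miRNAs from -0.12 to -0.26 at week 6, from -0.089 to -0.22 at week 8, from -0.19 to -0.0059 at week 12, and from 0.058 to -0.23 for week 12 minus week 6 in normal glands. For tumors DESeq2 size factors moved it from -0.080 to 0.053. For week 12 minus week 6, 13 of the 50 miRNAs that passed in normal glands were higher, against 2 of 45 with library sizes only. In tumors 10 of 18 were higher, against 17 of 25 with DESeq2 size factors and 10 of 13 with library sizes only. Signs turned for values that had not passed: mir-30b at week 12 (0.056 with library sizes only, 0.10 without the muscle-rich libraries), and week 12 minus week 6 in normal glands for mir-30b (-0.078), mir-30c (-0.036) and mir-30e (-0.21) with library sizes only and for mir-30e (-0.0063) with at least 10 counts. In lane 2 the log2 ratios of mir-30d to mir-30a (0.11), mir-30e to mir-30a (0.024) and mir-30e to mir-30d (-0.089) turned, and that of mir-30e to mir-30a was 0.028 without the muscle-rich libraries. The number of ratios that passed was 8 in lane 1, 6 in lane 2 and 7 under every other whole setting. Spearman's correlation kept 11 of the 15 named closest miRNAs.

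Leaving out 1 library gave 1 to 2, 0 to 1, 0 to 4 and 0 to 2 members at weeks 6, 8, 10 and 12, 3 to 4 in the mean over weeks, and 0 to 1 for week 12 minus week 6 in normal glands and in tumors. The means over weeks were 0.16 to 0.36 for mir-30d and -0.33 to -0.11 for mir-30b. The numbers over all miRNAs were 78 to 150, 50 to 81, 103 to 144 and 74 to 120 at weeks 6, 8, 10 and 12. They were 195 to 208 in the mean over weeks, 0 to 1 for the interaction, 32 to 76 for normal glands and 0 to 30 for tumors. mir-30b had -0.19 to 0.10, -0.29 to 0.056 and -0.29 to 0.15 at weeks 6, 8 and 12. Week 12 minus week 6 in normal glands was -0.018 to 0.44 for mir-30b and -0.10 to 0.38 for mir-30e.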
